A study of Rattus norvegicus with 4 samples.

Results

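The interleukin 6 (IL-6) and leukaemia inhibitory factor (LIF) family was followed in cultured rat testicular peritubular myoid cells, the contractile cells that surround the seminiferous tubules. The members were 10 genes: the ligands Il6, Lif, Il11 and Cntf, the receptor chains Il6st, Il6ra, Lifr and Osmr, and the signalling genes Stat3 and Socs3. They were found by their gene names in the scanner files, which gave 11 probes on 38 spots of each array, out of 41012 probes on 43379 non-control spots for 35667 genes and unnamed transcripts. Stat3 had 2 probes and every other member had 1. The Il6, Cntf and brighter Stat3 probes were printed 10 times on each array, and the other members' probes once. Il6ra is the name in the files for the gene that the reference table calls Il6r.

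Cells were taken from testes of 40-day-old male rats and kept for 4 days in DMEM and Ham's F-12 with growth factors. The treated cells received 1e-07 M testosterone in pulses, and the control cells were named only as controls, with no vehicle given in the labels. No genetic change is named for either group. RNA from each group was hybridised to 2 one-colour Agilent arrays, numbered 1 and 2 in both groups. Whether the numbers stand for separate animals or separate cultures is not in the labels. The p-values therefore cover no more than array-to-array spread, part or all of which could be technical. A comparison of testosterone-treated with control cells follows from the treatment, and a comparison of the arrays numbered 2 with those numbered 1 follows from the shared numbers. Each number held 1 treated and 1 control array.

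All ligands of this family signal through receptor complexes that contain gp130, the protein made from Il6st. IL-6 first binds its own receptor chain, made from Il6ra, whereas LIF and ciliary neurotrophic factor use the chain made from Lifr, and oncostatin M uses the chain made from Osmr. The complexes activate Janus kinases, which phosphorylate STAT3, and STAT3 switches on Socs3, whose protein blocks the receptor complex in turn. Within the testis, IL-6 is made by Sertoli cells and by resident macrophages, and peritubular cells are a known source of LIF.

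A level is given throughout as the log2 processed signal minus the array's 75th percentile, so 0 is the signal that 75% of the array's spots did not exceed. Levels of different probes are not set against each other, because probes differ in how strongly they bind. Between 63.5% and 68.2% of the non-control spots were well above background on each array. The replicate-1 control array held 115 spots that lay at least 3 log2 units below each of the other arrays, all of them in array columns 57 to 85, which carry 33.9% of the spots. The replicate-1 testosterone array had 1 such spot and the others had none. Of 11 peritubular smooth muscle markers, 9 had a probe under their name, 7 of which were well above background on all 4 arrays; Cnn1, which encodes calponin, was not so on any array, and no probe was named Acta2 or Myh11. The level of Tagln, one of those 7, was between -4.63 and -2.75. Macrophage markers were present too, with all 13 measured genes well above background on every array, as were 7 of 8 Leydig cell markers, 7 of 8 fibroblast markers and 7 of 10 Sertoli cell markers. In bulk RNA, fewer cells of a type and less RNA per cell cannot be told apart.

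The Il6 and Osmr promoters are printed because these members had the 2 largest positive differences between array numbers once Lifr and the single-spot Stat3 probe, whose spots lie near the low ones of the control array 1, are set aside. They come from RefSeq on build GRCr8, span the gene's start, and are read along the gene's strand. Capitals mark motif matches.
Il6, chr4:5894526-5894825, minus strand: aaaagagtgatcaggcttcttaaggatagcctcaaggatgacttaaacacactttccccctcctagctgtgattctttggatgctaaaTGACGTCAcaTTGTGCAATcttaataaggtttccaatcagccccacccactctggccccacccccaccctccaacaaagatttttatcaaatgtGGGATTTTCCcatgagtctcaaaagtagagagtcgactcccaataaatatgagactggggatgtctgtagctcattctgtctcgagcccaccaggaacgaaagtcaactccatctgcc
Osmr, chr2:57688512-57688811, minus strand: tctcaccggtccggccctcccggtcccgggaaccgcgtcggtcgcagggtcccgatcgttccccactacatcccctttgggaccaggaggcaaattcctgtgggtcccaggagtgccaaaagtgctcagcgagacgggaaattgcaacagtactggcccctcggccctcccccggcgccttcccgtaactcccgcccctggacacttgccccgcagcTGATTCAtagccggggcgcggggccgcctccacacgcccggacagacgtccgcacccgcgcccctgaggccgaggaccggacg
The Il6 window held a cyclic AMP response motif, TGACGTCA, a C/EBP motif, TTNNGCAAT, and an NF-kB motif (GGG, any pair of bases, then TTTCC), whose first bases were at -162, -152 and -68 from the start, negative numbers being upstream. The Osmr window held an AP-1 motif, TGANTCA, at -33. Motifs were picked from what is known of Il6 regulation and searched on both strands, and no 2 matches overlapped in the Il6 window. Over 33469 rat promoters of the same table, the shares with a match were 1.83% for the cyclic AMP motif, 2.33% for C/EBP, 1.53% for NF-kB and 7.33% for AP-1. The AP-1 letters were also in the Cntf and Il11 windows. The STAT motif, TTCNNNGAA, was in 8.87% of promoters and in none of the 9 member windows given, and the androgen response half-site, AGAACA, was in 20.7% and in none of the 9. Promoters of 9 members were matched, without Lif.

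Testosterone-treated and control cells differed in none of the 9 members tested beyond the spread between arrays. Il6 is the cytokine that gives the family its name, and its probe is placed within chr4:457279-458563 on the minus strand of build rn4. Its level was -3.19 and -1.43 on the testosterone arrays 1 and 2, against -3.47 and -2.02 on the control arrays 1 and 2. The groups overlapped, since both arrays numbered 2 were above both arrays numbered 1. The testosterone minus control difference was 0.43 (95% interval -1.65 to 2.52, limma adjusted p = 1.00). It was 0.28 between the arrays numbered 1 and 0.59 between those numbered 2.

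Il6 was the member that differed between array numbers after adjustment over all probes. It averaged -1.72 ± 0.42 on the arrays numbered 2 and -3.33 ± 0.20 on those numbered 1 (SD, n = 2 each), a 3.05-fold higher signal with a log2 difference of 1.61 (0.95 to 2.26, limma adjusted p = 0.0447). The difference was 1.76 within testosterone-treated cells and 1.45 within control cells. Of 26710 probes tested, 684 (2.56%) had a number 2 minus number 1 difference at least as large. The call was lost without any 1 of the 4 arrays, with differences of 1.31 to 1.90 and limma adjusted p-values of 0.0630 to 0.183. It was also lost with treatment as a covariate (adjusted p = 0.0518) and with no detection filter (adjusted p = 0.125), and with normexp background correction and quantile normalization the difference was 0.83 (adjusted p = 0.0354).

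The repeated printing of the Il6 probe shows the error within an array. On the arrays numbered 2 the 19 usable spots lay between -2.18 and -1.35, and on those numbered 1 the 20 spots lay between -4.15 and -3.01, so no spot of one number reached the range of the other. On the testosterone array 2 the spots lay between -1.62 and -1.35, above the range of -2.18 to -1.90 on the control array 2. On the arrays numbered 1 the ranges overlapped, at -3.48 to -3.01 with testosterone and -4.15 to -3.22 in control cells. The SD over spots was 0.14 and 0.093 on the testosterone arrays 1 and 2, against 0.27 and 0.078 on the control arrays 1 and 2. Spots of an array share 1 RNA sample and are not replicates of a condition.

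**Figure D1:**
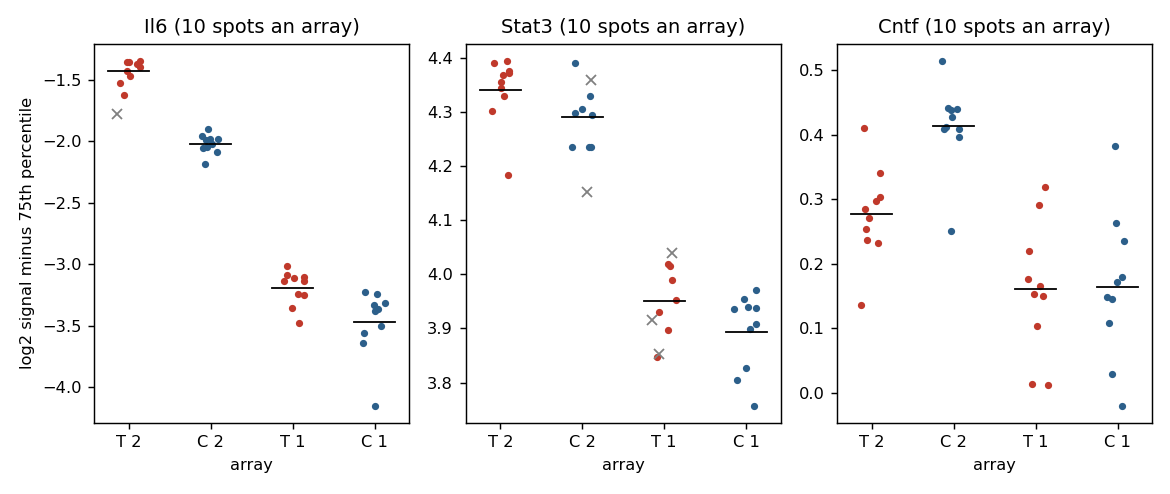
Level of each usable spot (log2 signal minus the array's 75th percentile, vertical axis) of the 3 member probes printed 10 times, in the column order testosterone array 2, control array 2, testosterone array 1, control array 1 (T, testosterone; C, control); bars are array means, and grey crosses are outlier-flagged spots that were left out. The Il6 spots of the arrays numbered 2 lie between -2.18 and -1.35, above all spots of the arrays numbered 1, and the Stat3 spots separate by number too, while the Cntf spots overlap.

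Lif, the cytokine best known for keeping mouse embryonic stem cells undifferentiated, is measured at chr14:84890560-84890619 on the plus strand of rn4. Its level was -3.21 and -2.88 on the testosterone arrays 1 and 2, against -3.25 and -3.17 on the control arrays. The difference between treatments was 0.17 (-0.40 to 0.73) and that between numbers was 0.21 (-0.19 to 0.60, limma adjusted p = 0.381). Cntf, which encodes ciliary neurotrophic factor, is measured at chr1:215842670-215842729 on the minus strand. It had 0.16 and 0.28 with testosterone, against 0.16 and 0.41 in control cells. Its arrays lay within 0.25 log2 units of each other, with differences of -0.07 (-0.61 to 0.47) between treatments and 0.18 (-0.13 to 0.50) between numbers. Its spots lay between 0.14 and 0.51 on the arrays numbered 2 and between -0.02 and 0.38 on those numbered 1, and so overlapped. Il11, a ligand that signals through its own receptor chain and gp130, is measured at chr1:67788392-67788451 on the plus strand. No array had it well above background, and it was not tested.

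**Figure D2:**
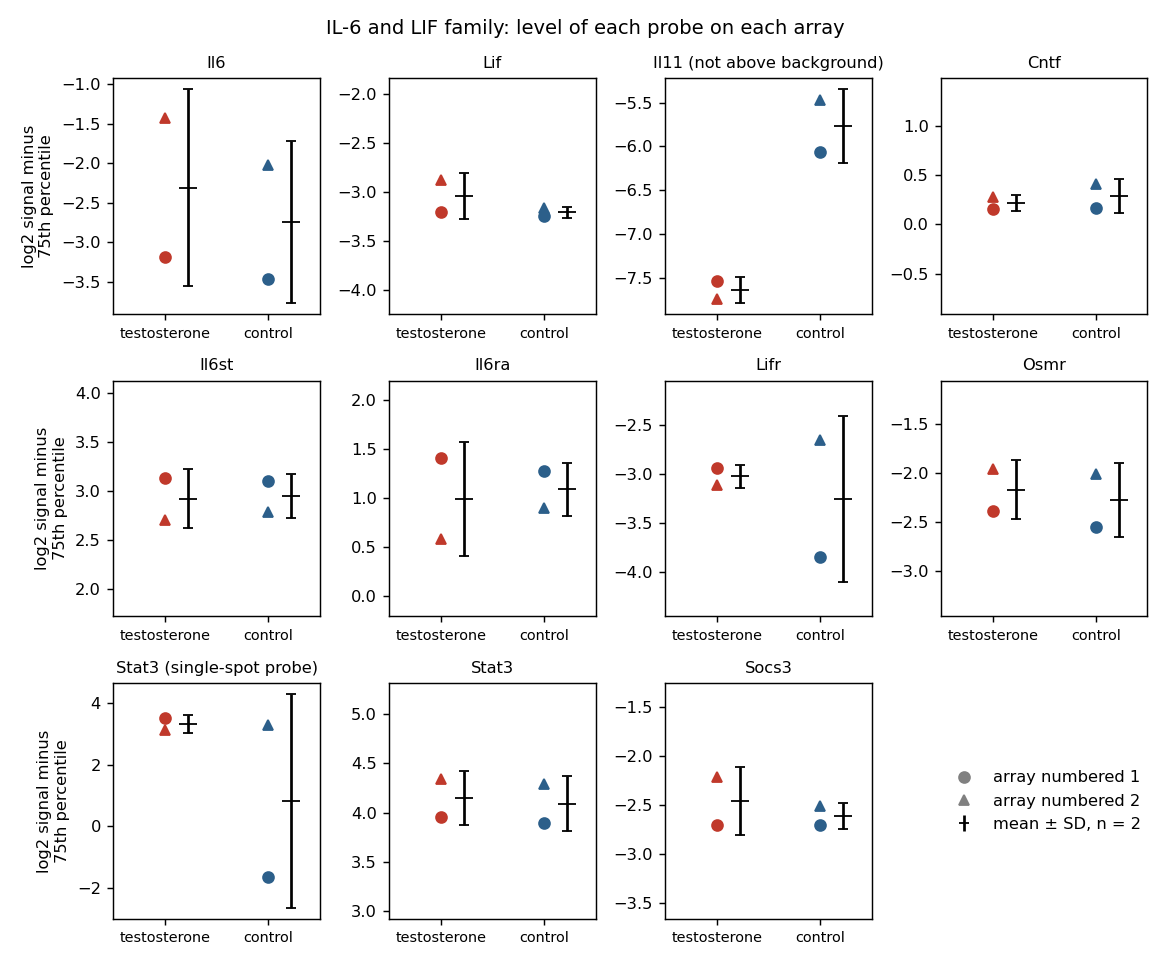
Level of each member probe (log2 signal minus the array's 75th percentile, vertical axis) on the testosterone (red, left) and control (blue, right) arrays, with circles for the arrays numbered 1, triangles for those numbered 2 and bars for the mean ± SD (n = 2); vertical ranges differ between panels, and Il11 was not well above background. Testosterone and control overlap in every tested member, the Il6 arrays numbered 2 at -1.43 and -2.02 lie above those numbered 1, and the single-spot Stat3 probe stands at -1.64 on the control array 1.

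Among the receptor chains, none was called in either comparison. Il6st, the chain shared by the whole family, is measured at chr2:43833273-43833332 on the plus strand of rn4. Its level was 3.14 and 2.71 on the testosterone arrays 1 and 2, against 3.10 and 2.79 on the control arrays. The arrays numbered 2 were below those numbered 1 in both treatments, by a difference of -0.37 (-0.67 to -0.07, limma adjusted p = 0.114), and the treatments differed by -0.02 (-0.70 to 0.65). Il6ra, the chain that binds IL-6 itself, is measured at chr2:182078323-182078382 on the minus strand. It had 1.40 and 0.58 with testosterone, against 1.28 and 0.90 in control cells. Its number 2 minus number 1 difference was -0.60 (-1.02 to -0.18, limma adjusted p = 0.0927) and its treatment difference -0.09 (-1.03 to 0.84). Within number 1 the treatment difference was 0.13 and within number 2 it was -0.32. With normexp and quantile normalization the number differences of Il6st and Il6ra were -0.42 and -0.58 and passed the threshold (adjusted p = 0.0340 and 0.0432).

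Osmr, the oncostatin M receptor chain, is measured within chr2:56081199-56081943 on the minus strand. It had -2.38 and -1.96 with testosterone, against -2.55 and -2.01 in control cells. It was higher on both arrays numbered 2 than on both numbered 1, by 0.48 (0.16 to 0.81, limma adjusted p = 0.0873), and the treatments differed by 0.11 (-0.67 to 0.89). Lifr, the chain that binds LIF, is measured at chr2:56477054-56477113 on the plus strand. Its level was -2.94 and -3.11 with testosterone, against -3.85 and -2.65 in control cells. The control arrays thus held both the lowest and the highest value, and neither comparison separated its groups. The treatment difference was 0.23 (-0.95 to 1.41) and became -0.37 without the control array 1, whose Lifr spot has 56 of the 115 low spots within 10 rows and columns. The number difference was 0.51 (-0.45 to 1.48, limma adjusted p = 0.377), and 0.06 without that array. The part of the low spots in the Lifr value was not tested.

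Stat3, the transcription factor downstream of gp130, gave different pictures on its 2 probes. The probe with 10 spots, at chr10:89821145-89821204 on the minus strand of rn4, read 3.95 and 4.34 on the testosterone arrays 1 and 2, against 3.89 and 4.29 on the control arrays. Both arrays numbered 2 were above both numbered 1, with a difference of 0.39 (0.10 to 0.69, limma adjusted p = 0.103), while the treatments differed by 0.05 (-0.64 to 0.75). Its spots lay between 4.18 and 4.39 on the arrays numbered 2 (18 spots) and between 3.76 and 4.02 on those numbered 1 (17 spots), without overlap.

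The single-spot Stat3 probe, within chr10:89823819-89824169 on the minus strand, read 3.52 and 3.11 with testosterone, against -1.64 and 3.28 in control cells. The control array 1 alone was low, at a processed signal of 134 against 5294, 3062 and 3857 on the testosterone arrays 1 and 2 and the control array 2. The spot lies in array column 83 and is itself one of the 115 low spots, and 39 low spots, this one included, lie within 10 rows and columns of it. The treatment difference of 2.50 (-1.93 to 6.92) became 0.04 without the control array 1, and 4.96 (limma adjusted p = 0.0323) without the control array 2. The number difference of 2.26 (-2.42 to 6.93) became -0.32 without the control array 1, and 4.84 (limma adjusted p = 0.00348) without the testosterone array 1. On the 10-spot probe the control array 1 stood within 0.06 log2 units of the testosterone array 1.

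**Figure D3:**
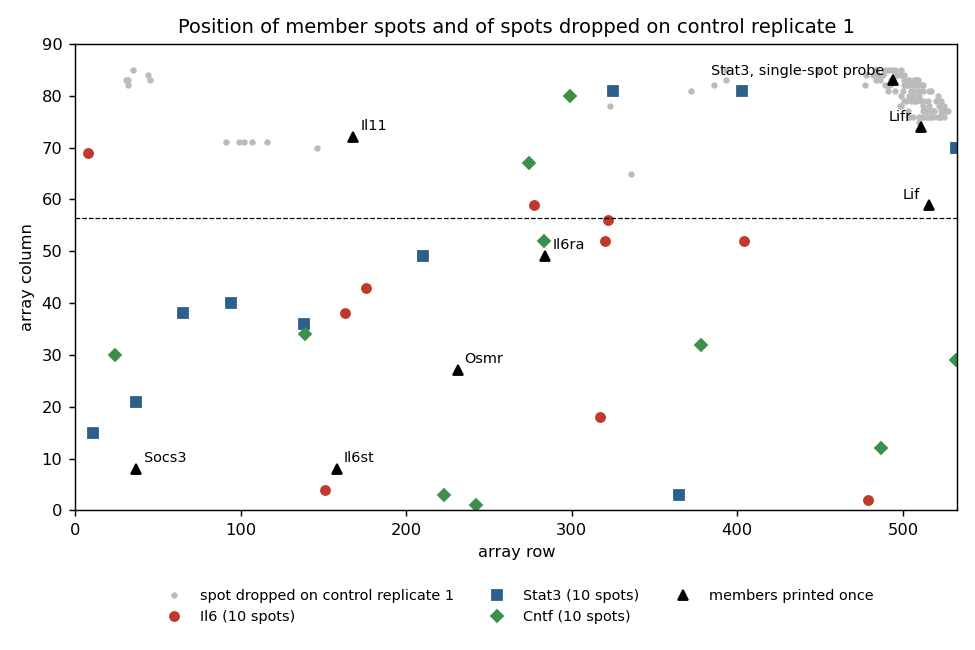
Position on the array (row, horizontal axis; column, vertical axis) of the 115 low spots of the control array 1 (grey) and of the members' spots; the dashed line marks column 57, where the area starts. All 115 low spots lie in columns 57 to 85, with the single-spot Stat3 probe among them and the Lifr spot beside them.

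Socs3, the feedback inhibitor that STAT3 induces, is measured at chr10:107958703-107958762 on the minus strand. Its level was -2.70 and -2.22 on the testosterone arrays 1 and 2, against -2.70 and -2.51 on the control arrays. Both arrays numbered 2 were above both numbered 1, but the difference of 0.34 (-0.06 to 0.73, limma adjusted p = 0.204) did not pass the test. The treatment difference was 0.15 (-0.52 to 0.82).

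Of the 10 member probes tested, all well above background on all 4 arrays, none was called between testosterone-treated and control cells, where 0.0% of 25881 probes were called by limma at an adjusted p under 0.05. At an unadjusted p under 0.05, none of the 10 member probes and 208 of all probes (0.804%) were counted. No tested member probe had groups that did not overlap, against 15.1% of all probes tested. The member differences were positive for 7 probes and negative for 3, with a median of 0.13, and 47.7% of all probes were positive. Those 7 include Lifr and the single-spot Stat3 probe, whose spots lie near or among the low ones of the control array 1. The median half-width of the 95% interval over all probes was 0.64, before any adjustment for the number of probes tested. With 2 arrays against 2, an exact 2-sided permutation test cannot reach a p of 0.05.

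Between array numbers, 1 of the 10 member probes was called, beside 5.64% of the 26710 probes tested, or 4.19% called higher and 1.46% called lower on the arrays numbered 2. The groups did not overlap for 8 member probes, 6 of them higher and 2 lower, where 65.3% of all probes did not overlap. The higher probes were those of Il6, Osmr, Stat3 (10 spots), Socs3, Lif and Cntf, and the lower ones those of Il6st and Il6ra. At an unadjusted p under 0.05, 5 member probes were counted, against 31.1% of all probes. Differences were positive for 8 member probes and negative for 2, and 57.9% of all probes were positive. The member median was 0.37, beside 0.08 over all probes. The positive count and this median include Lifr at 0.51 and the single-spot Stat3 probe at 2.26. The spots of both lie near or among the low ones of the control array 1.

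**Figure D4:**
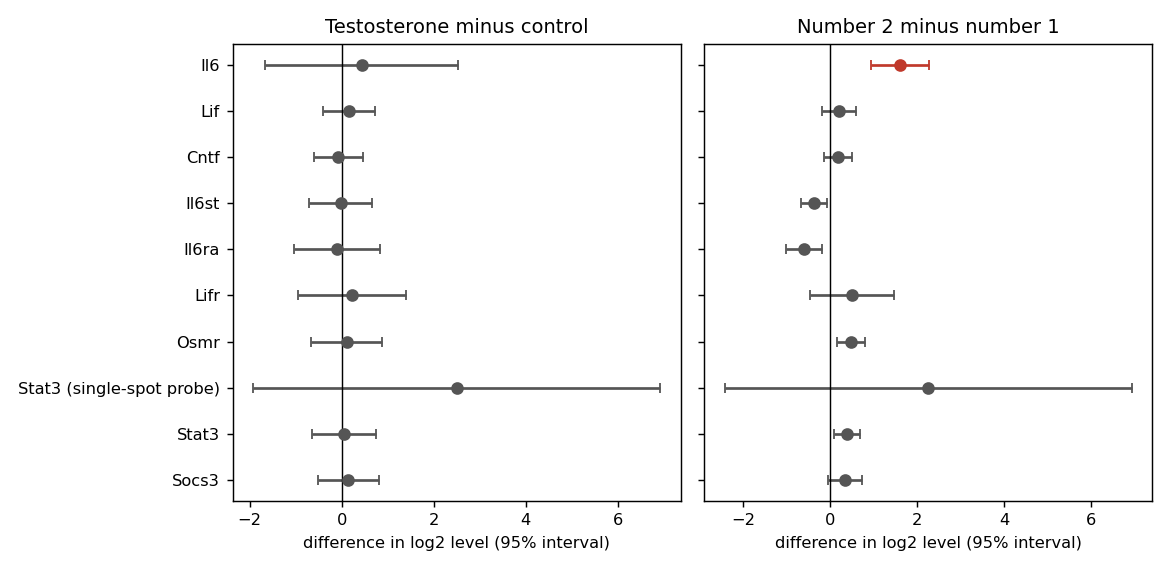
Difference of each tested member probe in log2 units (horizontal axis) with its 95% interval from limma, for testosterone minus control and for number 2 minus number 1; red marks an adjusted p under 0.05. Every treatment interval includes 0, and Il6 at 1.61 is the one red point between numbers.

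Some cell type markers also differed between the numbers. As a background for the counts that follow, 60.0% of the 22774 genes tested had a positive difference, 4.59% were called higher and 1.26% lower. Of 10 germ cell markers, 9 had a probe, and 8 of them were well above background on each array numbered 2, against 4 and 5 on the testosterone and control arrays numbered 1. The 3 that were well above background on all 4 arrays, Prm1, Tnp1 and Tnp2, were all called higher, by 2.87 to 4.86 log2 units. Their mean level was 0.80 and 0.84 on the testosterone and control arrays numbered 2, against -3.37 and -3.28 on those numbered 1. The other 5 genes tested did not pass on all 4 arrays, and their differences are not counted. Tnp1, a spermatid nuclear protein gene, had 1.59 in both treatments on the arrays numbered 2, against -3.42 and -2.80 on those numbered 1. Pgk2 was below that mark on every array. The 13 macrophage markers averaged 1.71 and 1.78 on the arrays numbered 2, against 1.70 and 1.66 on those numbered 1, with 7 positive and 6 negative differences that ran from -0.53 to 1.00, the highest being Adgre1, the one gene called. Laptm5, among the positive ones, read 3.47 on the control array 1 and 4.36 to 4.72 on the others. Its spot has 24 of the low spots of that array within 10 rows and columns, and their part in these values was not tested. In the peritubular list 6 of 7 tested genes were positive and Tagln was called higher, and in the fibroblast list 6 of 7 were positive and Lum and Fn1 were called higher. The dimmer Fn1 probe differed by 0.60 (limma adjusted p = 0.0601) and was not called. Among the positive fibroblast genes, the probes of Col1a2, Col3a1 and Dcn were saturated on all 4 arrays, and those of Col1a1 and Fn1 on 1 array. Differences of saturated probes may not follow the amount of RNA. Of 5 endothelial markers well above background on all 4 arrays, 4 were positive and Kdr was called higher. The Sertoli list had 4 positive and 3 negative differences with Cldn11 called lower, and the Leydig list 2 positive and 5 negative with Cyp11a1 called lower. Hsd11b1, among the positive Leydig genes, was saturated on all 4 arrays. The part of these cell types in the Il6 result was not tested.

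Further genes of the pathway were taken as the brightest tested probe of each. Between treatments no gene of the 4 lists was called, and list medians lay between -0.03 and 0.02 beside -0.01 over all 22023 genes, of which 47.9% had a positive difference. Of the family's other ligands and receptors, 7 of 10 were on the array and 5 were tested, with 3 positive and 2 negative differences. Ctf1, which encodes the gp130 ligand cardiotrophin 1, had a treatment difference of 0.73 (-0.61 to 2.07). It was lowest on the control array 1. Its spot lies in array column 75, within the span of columns that holds the low spots of that array. The spot has 0 low spots within 10 rows and columns, but drops smaller than 3 log2 units were not counted as low. The part of that area in the Ctf1 value was not tested. Ctf1 read -2.04 and -1.76 with testosterone, against -3.32 and -1.94 in control cells. Socs2, an inhibitor related to Socs3, differed by 0.58 (-0.16 to 1.31) and has 36 of the low spots within 10 rows and columns. In the kinase and STAT list, 11 of 24 tested genes were positive, and in the STAT3 target list 13 of 26. Fos, an immediate early gene, had the largest size among the targets, at -0.41 (-1.33 to 0.52). In the NF-kB and AP-1 list, which holds inhibitors and targets of these pathways as well as inducers of Il6, 10 of 18 were positive. The largest size there was that of Irak1, at -0.27 (-1.22 to 0.67).

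Between array numbers the kinases, STATs and inhibitors had no call, with 11 positive and 13 negative differences of 24 and a median of -0.07. Ptpn11, the phosphatase that binds gp130, and Stat5a had the largest positive differences, 0.55 and 0.53 (limma adjusted p = 0.0691 and 0.0720). The dimmer Ptpn11 probe differed by 0.29 (limma adjusted p = 0.347). Socs6 and Sh2b3, both negative regulators of cytokine signalling, had -0.60 and -0.52 (limma adjusted p = 0.0548 and 0.0670). Of the 5 other ligands and receptors, 3 were positive and none was called, with Ctf1 at 0.83 (limma adjusted p = 0.275). Clcf1, another gp130 ligand, was at -0.24 (limma adjusted p = 0.214) on its brighter probe, and at -0.9996 (adjusted p = 0.0420) on its dimmer one.

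Of 26 STAT3 targets tested, 4 were called higher on the arrays numbered 2 and none lower, with 14 positive and 12 negative differences and a median of 0.06. Some of the positive targets, none of them called, were saturated on all 4 arrays. Over all genes, 4.59% were called higher and 1.26% lower, and 60.0% had a positive difference. The called targets were A2m, Lcn2, Hp and Vegfa. A2m and Hp encode plasma proteins of the acute phase in rat liver, and Lcn2 encodes an iron-binding protein of innate defence. A2m read 3.54 and 3.33 on the testosterone and control arrays numbered 2, against 0.85 and 0.79 on those numbered 1 (limma adjusted p = 0.00726). Lcn2 read 2.40 and 2.07, against -0.04 and 0.06 (limma adjusted p = 0.0149), and Hp read 6.29 and 6.21, against 4.21 and 4.12 (limma adjusted p = 0.00866). The folds of number 2 over number 1 were 6.13 for A2m, 4.68 for Lcn2 and 4.23 for Hp, and each gene was higher in both treatments. Vegfa, the vascular growth factor gene, differed by 1.10 (limma adjusted p = 0.0463) on its brighter probe and by 0.77 (adjusted p = 0.0689) on the other. Junb and Cebpd, early targets of STAT3, had -0.38 and 0.08 and were not called.

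Of 18 genes tested in the NF-kB and AP-1 list, 2 were called higher and none lower, with 11 positive and 7 negative differences and a median of 0.19. Il1b, the interleukin 1 beta gene, read 2.07 and 1.91 on the testosterone and control arrays numbered 2, against 0.07 and 0.02 on those numbered 1, a 3.86-fold higher signal (limma adjusted p = 0.0115). Its other probe differed by 1.84 (adjusted p = 0.0170). Ptgs2, which encodes cyclooxygenase 2, read 0.17 and 0.00, against -0.97 and -1.31, a 2.34-fold higher signal (limma adjusted p = 0.0381). Nfkbiz and Il1a had 0.73 and 0.69 (limma adjusted p = 0.0750 and 0.0520), and Irak1 had -0.64 (limma adjusted p = 0.101).

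**Figure D5:**
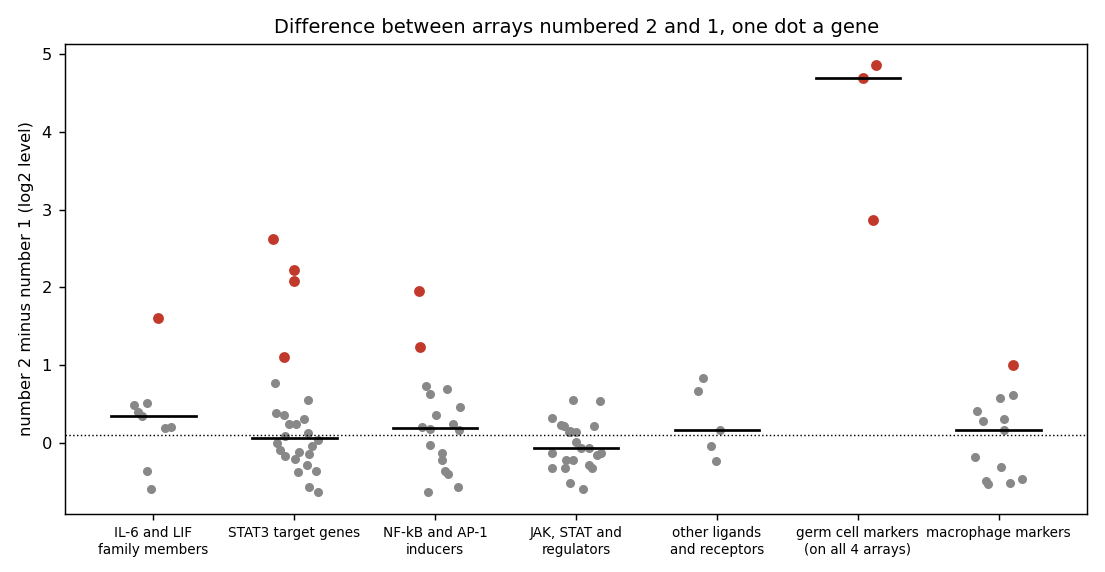
Number 2 minus number 1 difference (log2 units) of each tested gene of the members, the 4 pathway lists and the germ cell (on all 4 arrays) and macrophage markers; black bars are list medians, the dotted line is the median of all genes (0.10), and red marks an adjusted p under 0.05. Red points outside the markers are Il6 among the members, A2m, Lcn2, Hp and Vegfa among the STAT3 targets and Il1b and Ptgs2 in the NF-kB and AP-1 list. That list is labelled inducers but also holds inhibitors and targets. The single-spot Stat3 probe is left out.

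The genes whose levels followed those of Il6 most closely over the 4 arrays were Phox2a, Spon2, Lum, Spata19 and Ccl4, among 13234 named probes compared. After each gene was centred on its own mean, its level differed from that of Il6 by at most 0.090 log2 units for Phox2a, 0.093 for Spon2, 0.129 for Lum, 0.161 for Spata19 and 0.164 for Ccl4 on any array. Their number 2 minus number 1 differences were 1.63, 1.53, 1.73, 1.59 and 1.67. With 4 arrays and this many probes, a match so close is a description of these arrays.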

How the data were processed

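Total RNA was measured on 4 one-colour arrays, 2 per group, grouped by their titles. Per the file headers, Feature Extraction 11.5.1.1 wrote the deposited scanner files, which hold each spot's intensity and place probes on build rn4. Version 10.5 of Agilent Feature Extraction is named in the submitters' processing notes. The authors' deposited table holds log2 values, equal to the log2 processed signal minus a constant per array (8.79 and 8.38 for the testosterone arrays 1 and 2, 8.63 and 8.55 for the control arrays 1 and 2) over 40749 probes. Its scale, centring and direction are thereby known, and its column medians were -3.61, -3.34, -3.62 and -3.45 in that order.

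Processed signals were scaled to each array's 75th percentile on the log2 scale. Controls and spots flagged as outliers were dropped, saturation was ignored, and spots of a probe averaged. A probe was tested if either group (or number) had it well above background on both its arrays. Tests used limma 3.58.1 (R 4.3.3), 2-sided, with Benjamini-Hochberg adjustment over all probes, called under 0.05. The code was tested on simulated data with each probe's own spread between arrays. Between treatments, 0 of 100 probes changed by 1 log2 unit and 0 of 100 changed by 2 were called. Between numbers, 0 and 34 of 100 were called. The absence of calls between treatments therefore does not exclude changes of that size. The number of arrays limits the precision. Probes were renamed through a RefSeq table of assembly GRCr8: 10835 by accession, 5201 by symbol and 3440 by an older symbol, with 21536 keeping the file's name. Members and lists were chosen with earlier results of these data known. Named beside the members were up to 5 genes per list with the largest differences, and the 5 genes most like the member whose brightest tested probe had the widest range (Il6); Junb, Cebpd and the marker genes were named after their values were seen. Same-numbered arrays deviated together (r = 0.589 over 24489 probes), but 2 pairs and the labels do not establish pairing. The 4 arrays shared 1 slide and 1 scan, so neither could be a block. Alternatives were normexp with quantile normalization, median scaling, the authors' table, other filters, the brightest probe, columns left out, a block or covariate, and each array left out. Exon and UTR annotation of rn4 was not used here. One gene of a list is counted but not reported by name here.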

Additional observations from a re-analysis of the deposited data

How the results depend on the processing

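Between treatments, limma called 0 probes under every alternative that kept all arrays, with 208 probes at an unadjusted p under 0.05 in the reported setting. With the replicate block, that is the number as a pairing term, it also called 0 (740 at an unadjusted p under 0.05), and Il6 had an interval of -0.02 to 0.89 (adjusted p = 1.00); the block changed no call. Leaving out 1 array called 0 to 67 probes, the 67 without the control array 2. The count of members with groups apart was 0 with all arrays kept, but 1 with no detection filter (Il11, below background). The share of all probes was 15.1% in the reported setting and was not worked out for the alternatives. The count is not read with 1 array left out, where 2 arrays face 1 and the lone array is assumed to vary like the others. Those fits also turned signs: the treatment difference ran from -0.45 to 1.32 for Il6, -0.00023 to 0.33 for Lif, -0.20 to 0.054 for Cntf, -0.24 to 0.19 for Il6st, -0.50 to 0.32 for Il6ra, -0.37 to 0.82 for Lifr, -0.16 to 0.38 for Osmr, -0.15 to 0.25 for the 10-spot Stat3 probe and -0.10 to 0.39 for Socs3.

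Between numbers, 1507 probes were called (1118 higher, 389 lower). The count was 2748 with normexp and quantile normalization (1239 higher, 1509 lower), 353 with treatment as a covariate and 0 with no detection filter (8657 at an unadjusted p under 0.05). With 1 array left out it was 0 to 1132: 0 without the testosterone array 2 or the control array 2 (5026 and 7394 at an unadjusted p under 0.05), 639 without the control array 1. With all arrays kept, 7 to 8 member probes, of 7 to 11 tested, had numbers that did not overlap. The share of all probes was 65.3% in the reported setting and was not worked out for the alternatives. These counts are therefore not read as particular to the members. Lif reversed to -0.011 with normexp and quantile normalization, and the single-spot Stat3 probe ran from -0.32 to 4.84 with 1 array left out. The causes were not tested. Signals near background limit Il6, Lif, Lifr, Osmr and Socs3, and 4 arrays limit every comparison.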
